A study of Mus musculus with 16 samples.

Results

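TKO mouse embryonic stem cells (mESCs), which lack Dnmt1, Dnmt3a and Dnmt3b, were compared with their wild-type parent line J1 in serum. The comparison used 2 arrays of TKO cells in serum (TKO-serum) and 4 of J1 cells in serum (J1-serum), chosen by their titles among the 16 arrays of the series. Both lines descend from male J1 cells of strain 129S4/SvJae, and both serum cultures received 500 U/ml LIF, a cytokine that holds mESCs in self-renewal. J1-serum cells grew on SNLP feeder cells, which are growth-arrested fibroblasts, whereas TKO cells grew without feeders on gelatin. Genotype and feeder cells therefore cannot be told apart in serum. The series also held J1 and TKO cells after 2 weeks in 2i (3 arrays each), a serum-free medium with 1000 U/ml LIF, 1 µM of the MEK inhibitor PD0325901 and 3 µM of the GSK3 inhibitor CHIR99021. Methods name feeders only for the serum cultures of J1, so the 2i groups gave the same genotype comparison on other arrays and without that difference. A further line, 3B3l, lacks Dnmt3a and Dnmt3b and expresses introduced Dnmt3b and Dnmt3l, and its 2 serum arrays, also feeder free, are given as levels only. The labels do not say whether replicates were separate cultures, so p-values measure the spread between these samples, which may be technical.

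DNA methylation is the addition of a methyl group to cytosine, in mammals mostly where cytosine is followed by guanine (CpG). Dnmt3a and Dnmt3b place new marks with the help of the cofactor Dnmt3l, which has no catalytic activity of its own, and Dnmt1 copies the marks when DNA is replicated. Methylated promoters are usually silent. Genes known to be held silent this way include many of germ cells and of the germline gene clusters of the X chromosome. The same holds for a parental copy of some imprinted genes. mESCs need none of the enzymes to self-renew.

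Expression is given as log2 signal after subtraction of the 75th percentile of each array, so a value of 0 equals that percentile, and differences are TKO minus J1 on the log2 scale. A gene was called when limma's adjusted p was at most 0.05 and the fold change at least 2 for at least 1 of its probes. Of 13925 genes tested, 1282 (9.21%) were higher and 1370 (9.84%) lower in TKO-serum, 2644 in all because 8 genes had probes called each way. The median difference over all genes was 0.00942. Calls of at least 4-fold numbered 265 higher and 319 lower, and those of at least 16-fold 19 and 21. Gene lists are described by the members that passed the filter on dim probes. A member that passed through 1 group alone had to be brighter there, so the counts are descriptions. In 356 genes called higher a probe was well above background on both TKO-serum arrays and on no J1-serum array, and in 270 called lower the reverse held.

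The 6 arrays gave between 42.3% and 49.0% of spots well above background. Both TKO-serum arrays shared a slide with J1-serum replicates 3 and 4, and within that slide 1255 genes were higher and 1398 lower. J1-serum replicate 1 was on another slide, read on a second scan day, and correlated less with the other J1-serum arrays (Pearson 0.968 to 0.972) than those did with each other (0.980 to 0.987), across probes. Without it 1272 genes were higher and 1400 lower. The mESC markers Pou5f1, Sox2, Nanog, Zfp42, Dppa4, Tdgf1, Utf1 and Esrrb were well above background on all 6 arrays and none was called. All but Sox2, Dppa4 and Esrrb were saturated on at least 1 of these arrays, where a difference could be missed. Of 15 housekeeping genes, 14 differed by between -0.67 and 0.40 and the remaining one, B2m, was lower in TKO-serum.

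The 3 deleted genes were lower in TKO-serum than in J1-serum, and Dnmt1 and all 3 Dnmt3b probes stayed well above background on both TKO-serum arrays. Dnmt1, the maintenance enzyme, read 1.61, 1.91, 1.83 and 1.88 on J1-serum arrays 1 to 4 and -1.70 and -1.65 on the 2 TKO-serum arrays, differing by -3.48 (SE 0.12; adjusted p 2.0e-09, limma). Dnmt3a was well above background on every J1-serum array (0.81, 0.59, 0.52 and 0.59) and on neither TKO-serum array, so it was at least 18-fold lower. The 3 probes of Dnmt3b, all called, differed by -3.31, -3.78 and -3.89. All 4 J1-serum arrays lay above both TKO-serum arrays for these genes, and where the probes lie relative to the deleted exons was not given in the sources used here. In 2i the differences were -3.93 for Dnmt1 and -1.27 to -1.84 for the Dnmt3b probes, and the 3 Dnmt3b probes had means of 2.96, 2.51 and 4.23 in J1-serum and 0.63, 0.25 and 2.04 in J1-2i.

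Of 15 methylation machinery genes tested, 2 were called higher, Tet1 and Prdm14 (13.3%, near the 9.21% of all genes). The 3 deleted genes and Uhrf2 were called lower (26.7%, beside 9.84% of all genes). Tet1, which oxidises 5-methylcytosine, read 2.70, 2.61, 2.61 and 2.78 in J1-serum and 3.97 and 3.67 in TKO-serum, with no overlap between the groups, and rose by 1.14 (limma adjusted p 2.9e-05). Without TKO-serum replicate 1 its difference was 0.99, under the 2-fold limit. Prdm14, a naive pluripotency factor known to repress Dnmt3b, rose by 1.01 (limma adjusted p 1.3e-05), close enough to 2-fold that 5 of the alternatives put it below the limit. Tet1 and Prdm14 differed by 0.01 and -0.21 in 2i. Uhrf2, a relative of the Dnmt1 partner Uhrf1, was lower by 1 of its 2 probes. Dnmt3l was saturated on both TKO-serum arrays, which read 5.51 and 5.57 against 4.98, 4.43, 4.58 and 4.55 in J1-serum. Dnmt3l was therefore at least 1.87-fold higher. The remaining members, Uhrf1 (0.21), Hells (0.38), Tet2 (0.75), Tet3 (-0.76, without J1-serum replicate 1 and TKO-serum replicate 2, whose spots were outliers), Tdg (0.23), Trdmt1 (0.68) and Zfp57 (0.61), were not called. Trim28, saturated on 1 TKO-serum array, was at least 1.99-fold higher and not called. Of 8 readers of methylated DNA tested, 1 was called, Zbtb4, at least 3.08-fold lower (12.5%, near the 9.84% of all genes).

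**Figure D1:**
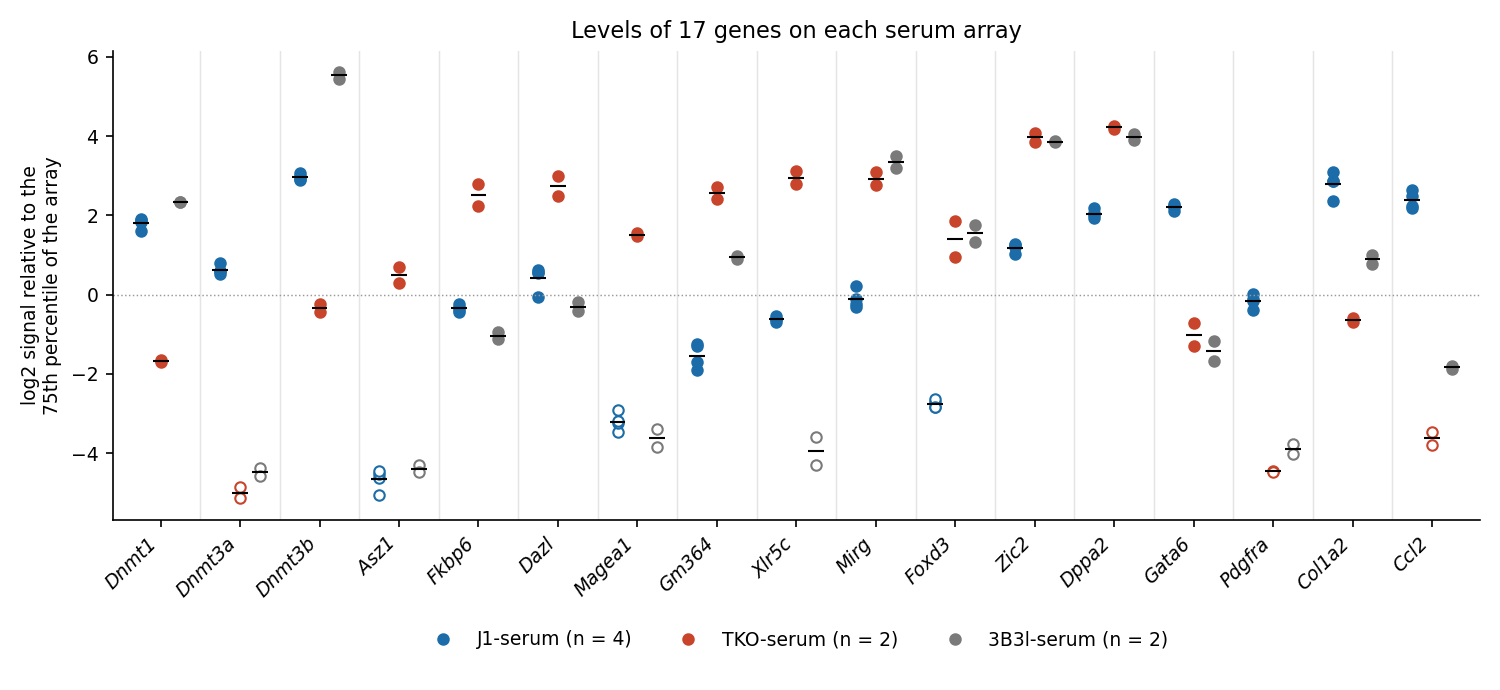
Each point is 1 array, the horizontal bars are group means, and the vertical axis is log2 signal scaled to each array's 75th percentile. Open points mark groups in which the probe was not well above background on any array. J1-serum (blue) and TKO-serum (red) do not overlap for any of the 17 genes. Most of these genes were chosen partly for that lack of overlap, so it is no result. 3B3l-serum (grey) lies with TKO-serum for Foxd3, Zic2, Dppa2, Gata6, Pdgfra and Mirg, and nearer TKO-serum for Gm364. It lies nearer J1-serum for Asz1, Fkbp6, Dazl and Magea1, and below both groups for Xlr5c.

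Genes of the piRNA pathway, which silences transposons in germ cells, had 5 of 18 tested members higher (Asz1, Fkbp6, Tdrd3, Gtsf1 and Stk31) and 1 lower (Pld6), 27.8% and 5.56% beside 9.21% and 9.84% of all genes, with a median difference of 0.46. The promoters of Asz1 and Fkbp6 are shown with those of Dazl, from the meiosis list, and Magea1, an X-linked germline gene, both described further on, because they differ in how many CpGs they offer for methylation. Each runs from 250 bases before to 50 bases after the transcription start in RefSeq on GRCm38.p6, on the gene's own strand, with CpG dinucleotides in capitals.
Asz1, chr6:18109012-18109311, minus strand: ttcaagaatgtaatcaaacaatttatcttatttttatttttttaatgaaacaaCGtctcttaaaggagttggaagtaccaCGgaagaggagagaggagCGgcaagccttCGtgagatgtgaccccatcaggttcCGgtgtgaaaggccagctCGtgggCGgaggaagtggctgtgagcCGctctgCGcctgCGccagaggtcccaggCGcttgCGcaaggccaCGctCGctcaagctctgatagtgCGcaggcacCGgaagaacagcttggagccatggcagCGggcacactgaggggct
Fkbp6, chr5:135349864-135350163, minus strand: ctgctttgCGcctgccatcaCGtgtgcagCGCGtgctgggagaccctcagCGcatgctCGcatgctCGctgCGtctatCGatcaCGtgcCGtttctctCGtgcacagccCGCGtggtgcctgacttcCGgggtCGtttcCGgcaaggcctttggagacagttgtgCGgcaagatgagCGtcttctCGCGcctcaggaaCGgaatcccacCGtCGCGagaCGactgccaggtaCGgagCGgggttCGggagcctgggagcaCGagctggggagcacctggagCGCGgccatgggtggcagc
Dazl, chr17:50293571-50293870, minus strand: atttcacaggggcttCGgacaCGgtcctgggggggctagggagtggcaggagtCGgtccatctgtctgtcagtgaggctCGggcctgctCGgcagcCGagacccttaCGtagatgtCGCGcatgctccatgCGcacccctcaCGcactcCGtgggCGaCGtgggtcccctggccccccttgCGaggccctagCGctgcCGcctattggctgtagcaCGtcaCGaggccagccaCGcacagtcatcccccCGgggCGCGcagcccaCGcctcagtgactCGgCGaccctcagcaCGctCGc
Magea1, chrX:155089741-155090040, minus strand: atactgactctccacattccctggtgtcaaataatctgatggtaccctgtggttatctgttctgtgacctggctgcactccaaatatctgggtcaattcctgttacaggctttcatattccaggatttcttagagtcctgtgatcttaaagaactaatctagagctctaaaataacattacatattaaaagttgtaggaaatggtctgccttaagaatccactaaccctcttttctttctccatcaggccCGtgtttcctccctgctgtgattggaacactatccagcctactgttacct
The windows held 17 CpGs in Asz1, 32 in Fkbp6, 28 in Dazl and 1 in Magea1, against a median of 21 over the 11106 tested genes with a promoter in the table. The E-box CACGTG, a palindrome searched in these windows, was found in that of Fkbp6 and in none of the other 3. It was in 31.2% of piRNA pathway promoters (5 of 16), 27.0% of those of meiosis genes (10 of 37), 10.1% of all tested genes and 7.39% of all promoters in the table. A match is a description of the letters and no evidence of binding.

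Asz1, which organises piRNA production at germ cell mitochondria, was not well above background on any J1-serum array (-4.64, -5.05, -4.53 and -4.44) and read 0.30 and 0.69 in TKO-serum, at least 14.4-fold higher (limma adjusted p 9.8e-09). Fkbp6, a co-chaperone needed to load PIWI proteins, read -0.43, -0.23, -0.38 and -0.32 in J1-serum and 2.24 and 2.80 in TKO-serum. Its difference was 2.86 (SE 0.15, limma adjusted p 3.1e-08), and a second probe gave 3.22. In 2i the median of the list was -0.30, with 2 members higher and 3 lower, beside 4.52% and 4.01% of all genes. The 2 higher ones were Asz1 and Fkbp6, Asz1 at least 2.11-fold and Fkbp6 by 1.26, and for Fkbp6 the difference between media, serum minus 2i, was 1.60 and called. In 3B3l-serum Asz1 was not well above background (-4.31 and -4.48) and Fkbp6 read -1.12 and -0.95, below every J1-serum array. Gtsf1, a zinc finger protein that assists PIWI slicing, rose by 1.41, the Tudor domain genes Tdrd3 and Stk31 rose by 1.49 and 1.36, and the mitochondrial nuclease gene Pld6 was lower (-1.23). The PIWI gene Piwil2 differed by 0.64 (limma adjusted p 0.097), and Mael, Ddx4 and Mov10l1 differed by -0.64, -0.38 and 0.36, none of them called.

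Meiosis and gametogenesis genes went both ways, with 8 of 40 tested members higher and 8 lower, 20% each way beside 9.21% and 9.84% of all genes, and a median of 0.26. Dazl, an RNA-binding regulator of germ cell translation, read -0.06, 0.56, 0.55 and 0.62 on J1-serum arrays 1 to 4 and 3.00 and 2.49 on the TKO-serum arrays, and rose by 2.33 (limma adjusted p 2.5e-06). J1-serum replicate 1 was the low array, and the groups did not overlap. Mei4, which takes part in the DNA breaks that start meiotic recombination, was at least 3.40-fold higher and was not well above background in J1-serum. Hormad1 of the meiotic chromosome axis (1.69), Syce1 of the synaptonemal complex (1.59), the testis ADP/ATP carrier gene Slc25a31 (1.40), the testis tubulin gene Tuba3b (1.72) and the egg coat gene Zp3 (1.25) also rose, and Sycp1, not well above background in J1-serum, was at least 2.17-fold higher. Tuba3b has near-identical copies that its probe may not tell apart. The 8 lower members included core meiotic genes as well. Sycp3, which forms the axial element of meiotic chromosomes, read 2.98, 2.96, 2.96 and 3.02 in J1-serum and 0.37 and 0.89 in TKO-serum, a difference of -2.35 (limma adjusted p 2.3e-07). Meioc was at -1.98, Dmc1, the meiotic recombinase, at -1.67, Dkkl1 at -1.48, Meiob at -1.41, Brdt at -1.35 and Rec8 at -1.03. Tnp1 was well above background on 2 of the 4 J1-serum arrays and neither TKO-serum array, at least 2.24-fold lower, and its arrays overlapped. The lower count was 5 without J1-serum replicate 2 and 4 without TKO-serum replicate 1. In 2i the median was -0.29, with 4 members higher and 6 lower, beside 4.52% and 4.01% of all genes. Those higher in both media were 3 (Dazl, Tuba3b and Zp3) and those lower in both 3 (Sycp3, Dmc1 and Tnp1), beside 1.3% and 1.62% of all genes. Stra8, which starts meiosis, differed by 0.46 and was not called.

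The X-linked germline clusters had a larger share of higher members than any other list. Of 35 tested genes among 51 listed, 24 (68.6%) were higher and none was lower, beside 9.21% and 9.84% of all genes, with a median of 1.69 against 0.00942 for all genes. In 9 members J1-serum was not well above background on any array while TKO-serum was on both. Each cluster is a family of near-identical copies that a probe may not tell apart, so a count of members is a count of probes that may share signal. The copies are expressed mainly in testis, ovary or placenta in the animal.

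Magea1, of the melanoma antigen family, read -3.46, -3.25, -2.92 and -3.20 in J1-serum and 1.48 and 1.55 in TKO-serum, at least 23.5-fold higher (limma adjusted p 4.2e-09). Magea3, Magea5, Magea8 and Magea4 were likewise not well above background in J1-serum, and were at least 9.13, 9.45, 8.24 and 4.43-fold higher. Gm364 read -1.91, -1.26, -1.30 and -1.70 in J1-serum and 2.40 and 2.71 in TKO-serum, a difference of 4.10 (SE 0.18). Neither gene overlapped between the groups. Of the Xlr cluster, Xlr5c rose by 3.56, Xlr5b by 3.54, Xlr5a by 3.25, Xlr4b by 2.66, Xlr4a by 2.54, Xlr3b by 1.74 and Xlr3a by 1.36. Xlr5c read -0.68, -0.54, -0.61 and -0.61 on the J1-serum arrays and 2.79 and 3.11 on the TKO-serum arrays. On the 3B3l-serum arrays it read -4.29 and -3.60 and was not well above background.

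In the Rhox homeobox cluster, the members Rhox13 (1.74), Rhox10 (1.69), Rhox8 (1.34), Rhox6 (1.28) and Rhox9 (1.24) were higher, while Rhox5, its best studied gene, differed by 0.39 and was not called. Outside the list, Rhox4a, Rhox4g and Rhox2h were not well above background on any J1-serum array and were at least 12.5, 13 and 20.6-fold higher. The RNA export gene Nxf3 rose by 3.13, Mageb4 by 2.19, Tex13b by 2.13, the testis deubiquitinase gene Usp26 by 1.63 and the transketolase-like gene Tktl1 by 1.49. Mageb16, Nxf2, Luzp4, Rhox7a, Fthl17a and Tex11 differed by 0.54, 0.33, 0.05, -0.04, -0.06 and -0.17 and were not called. The summed signal of the list, in units of the 75th percentile of the array, lay between 44.9 and 49.7 in J1-serum and between 117 and 121 in TKO-serum.

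The list was also high in 2i, where 20 members were higher in TKO and 2 lower, beside 4.52% and 4.01% of all genes. In both media 17 were higher, beside 1.3% of all genes, and none was lower. Magea3, Magea5 and Magea8 were at least 8.26, 9.78 and 10.6-fold higher in 2i, where they were again not well above background in J1. Xlr5c differed by 1.57 and Nxf3 by 0.37 in 2i. Rhox5, not called in serum, was higher in 2i (2.20). The summed signal in TKO-2i, 112 to 118, was close to that in TKO-serum.

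The share of genes called higher was larger on the X chromosome than on any autosome. Of its 540 tested genes 108 (20%) were higher and 37 (6.85%) lower, beside 9.21% and 9.84% over all genes, and the autosomes ranged from 6.04% to 10.9% higher. The 108 included 23 members of the germline list, since the 24th, Mageb3, is annotated to chromosome 2. Outside the list, 85 of 506 X-linked genes (16.8%) were higher. X-linked genes were 3.88% of genes tested and 23.8% of the 181 genes higher in both media (43 genes). The largest share of lower genes was on chromosome 8, with 105 of 739 (14.2%) and a median difference of -0.12, and the median there was -0.09 in 2i. Chromosome 11 followed with 12.8% lower. Genes on a chromosome are not replicates, so these shares carry no test.

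**Figure D2:**
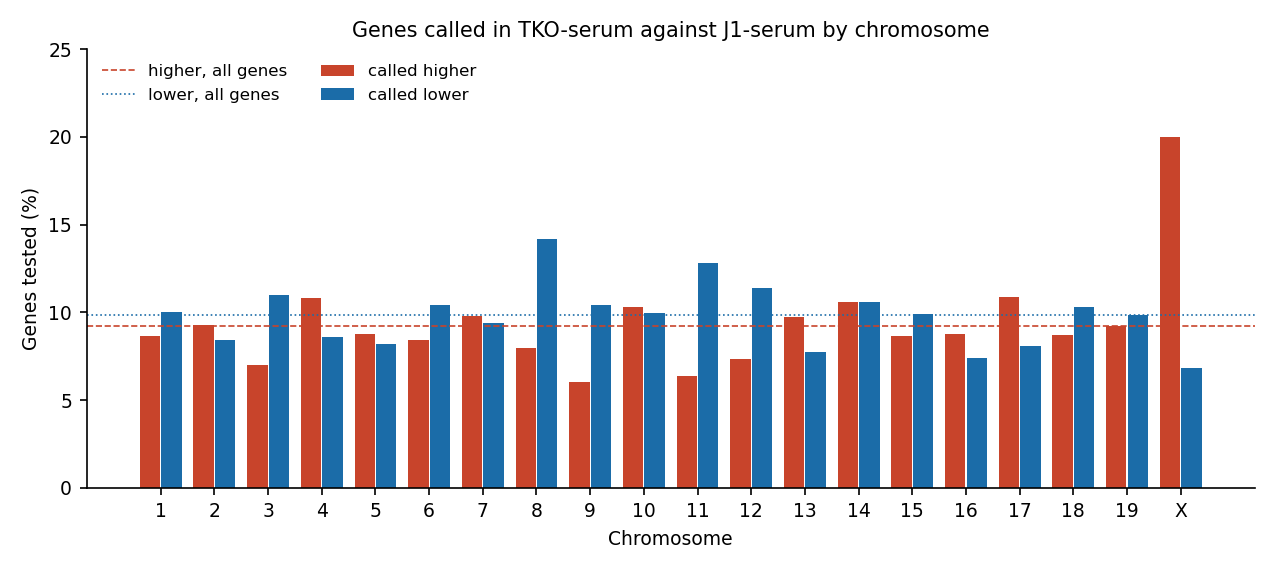
Bars give the percentage of tested genes on each chromosome that were called higher (red) or lower (blue) in TKO-serum than in J1-serum, and the horizontal lines give the same percentages over all genes (9.21% and 9.84%). The X chromosome has the tallest bar (20% higher), and chromosomes 8 and 11 have the largest shares of lower genes (14.2% and 12.8%).

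CpG number in the promoter window was set against the calls for the 11106 genes with a window, taking the window with most CpGs where a gene had several. The median was 17 CpGs for genes called higher, 19 for genes called lower and 21 for genes not called. Genes on in TKO-serum and off in J1-serum had a median of 15, those on in J1-serum and off in TKO-serum one of 16, and genes higher in both media a median of 10. The share called higher was 13.6% among genes with 3 to 5 CpGs and 13.3% among those with 6 to 10, and between 7.50% and 7.67% in each class above 15. Genes with 0 to 2 CpGs, which offer little to methylate, had 9.79% called higher. The share called lower was lowest at 0 to 2 CpGs (7.08%) and highest at 6 to 10 (12.6%). It was 11.6% at 11 to 15 and 8.66% at 21 to 30. The X-linked germline list had a median of 6.5 CpGs and the piRNA list of 24.5, on different sides of the median of all genes. GGCGGG, a GC box, was in 52.6% of the promoters of higher genes and 65.4% of those of lower genes, beside 61.5% of all tested and 37.0% of all promoters in the table. TCCCGC was in 32.2% and 36.0%, beside 35.3% and 21.1%. Both motifs were searched on both strands, and they can overlap, since the reverse complement of TCCCGC shares most of its letters with the GC box.

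**Figure D3:**
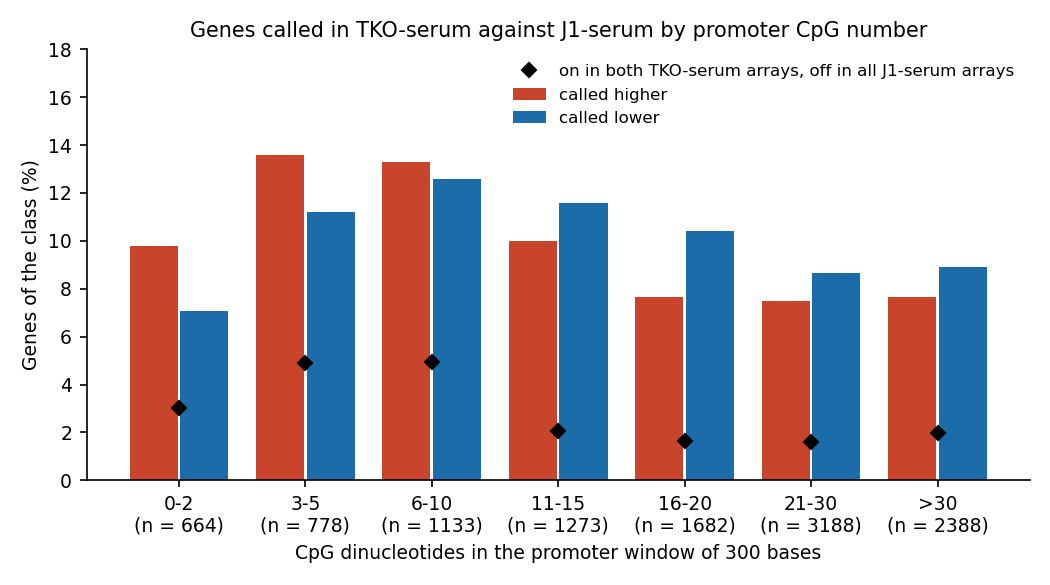
The horizontal axis gives classes of genes by the number of CpG dinucleotides in the promoter window, with the number of genes in each, and the vertical axis the percentage of the class. Red and blue bars are genes called higher and lower in TKO-serum, and diamonds are genes well above background on both TKO-serum arrays and on no J1-serum array. The red bars are highest at 3 to 5 and 6 to 10 CpGs (13.6% and 13.3%), where the diamonds also peak (4.88% and 4.94%).

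Imprinted genes had 15 of 45 tested members higher (33.3%) and 4 lower (8.89%), beside 9.21% and 9.84% of all genes, with a median of 0.17, and 26 were not called. Mirg, a maternally expressed noncoding RNA of the Dlk1-Dio3 cluster, read 0.21, -0.10, -0.32 and -0.23 in J1-serum and 2.76 and 3.10 in TKO-serum, differing by 3.04 (SE 0.18; adjusted p 6.6e-08, limma). Meg3 of the same cluster rose by 1.30, while its paternally expressed neighbour Dlk1 differed by 0.17 and was not called. No J1-serum array overlapped a TKO-serum array for Mirg, and 3B3l-serum read 3.51 and 3.20. Of the paternally expressed genes, Peg13 was at least 3.97-fold higher, Plagl1, a zinc finger gene, rose by 1.92, Peg3 by 1.84 and Mest by 1.77. Snrpn (1.52), Ndn (1.14) and Magel2 (1.94), which lie together in the Prader-Willi region, were all higher, with Magel2 not called without TKO-serum replicate 1. Kcnq1ot1, the noncoding RNA of the Cdkn1c cluster, was at least 2.57-fold higher, and Cdkn1c itself was at -0.49 and not called. Nap1l5, Impact and Sfmbt2 rose too, and Ddc and Peg10 were called by a probe other than their brightest.

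Dcn, Slc22a18, Sgce and Igf2 were the lower members. Dcn, which encodes the matrix proteoglycan decorin and is also a fibroblast marker, was at least 18.8-fold lower, and Slc22a18 and Sgce were at -1.87 and -1.45. Igf2 was well above background on 1 of the 4 J1-serum arrays and neither TKO-serum array, at least 1.84-fold lower. In 2i, 8 members were higher and 4 lower, beside 4.52% and 4.01% of all genes. Over all genes 1.3% were higher and 1.62% lower in both media. The 3 members lower in both media were Dcn, Slc22a18 and Sgce, and 5 were higher in both, Mirg (2.09), Mest (1.86) and Peg13 (at least 2.70-fold) among them. The arrays do not tell parental copies apart.

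Pluripotency genes of the naive and of the primed state included higher members and no lower ones. Of 28 naive pluripotency genes tested, 5 (17.9%) were higher, and of 26 genes of primed pluripotency and early lineages 12 (46.2%) were higher, beside 9.21% of all genes. Gbx2 rose by 2.49, Dppa2 by 2.17, Nr0b1 by 1.82, Gdf3 by 1.41 and Sall4 by 1.37. Dppa2, which binds many germline promoters, read 1.93, 2.06, 2.18 and 2.01 in J1-serum, 4.17 and 4.26 in TKO-serum and 4.06 and 3.91 in 3B3l-serum. Klf4, Dppa3 and Tfcp2l1 differed by 0.07, -0.12 and -0.11, none called.

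Among the primed genes, Foxd3, a transcription factor active when cells leave the naive state, was not well above background in J1-serum (-2.70, -2.84, -2.62 and -2.83) and read 1.86 and 0.95 in TKO-serum, at least 16.9-fold higher. Zic2 read 1.27, 1.01, 1.25 and 1.19 in J1-serum and 4.08 and 3.85 in TKO-serum, differing by 2.78 (SE 0.11; adjusted p 6.1e-09, limma). The groups did not overlap for either gene. The eye and neural regulator Pax6 was at least 6.79-fold higher, Fgf5, a marker of the epiblast after implantation, at least 2.66-fold, Fgf15 rose by 2.06, the Nodal antagonists Lefty2 and Lefty1 by 2.00 and 1.02, and Pou3f1, Lef1 and Sox3 by 1.91, 1.43 and 1.27. Fgf8 and Cdh2 were called by another probe than the brightest. Otx2, Nodal, Eomes and Nes differed by 0.22, 0.73, -0.46 and 0.09 and were not called, and Gsc, Hand1, T and Wnt3 were not well above background on any of the 6 arrays.

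Several of these genes were not called in 2i. Zic2 differed by -0.17, Foxd3 by 0.65, Lefty2 by -0.91 and Dppa2 by 0.05 there, whereas Gbx2 was still higher (1.92). Of the naive list, 3 members were higher in 2i and none lower, beside 4.52% and 4.01% of all genes. Of the primed list, 7 members were higher there and 4 lower. In both media 2 naive and 5 primed members were higher, beside 1.3% of all genes. In 3B3l-serum, grown like TKO without feeders, Foxd3 read 1.33 and 1.76, Zic2 3.86 and 3.87, Nr0b1 4.41 and 4.56 and Sall4 4.34 and 4.15. All of these lay above the 4 J1-serum arrays, whereas Lefty2 (2.77 and 2.72) lay among them and Fgf15 (-0.33 and -0.75) below.

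**Figure D4:**
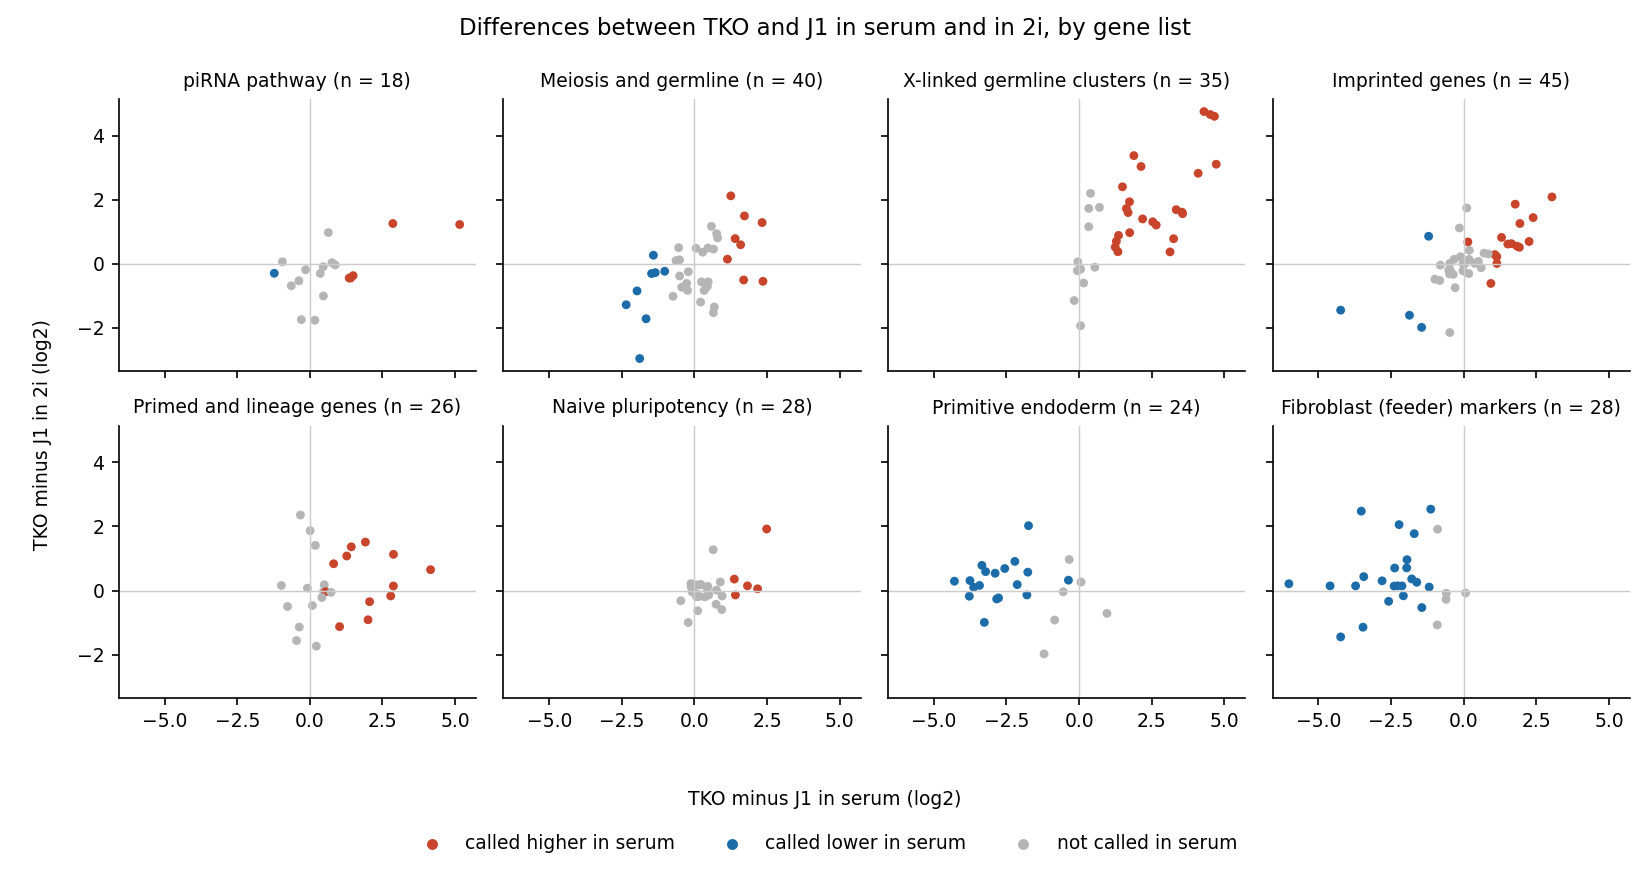
Each point is 1 gene by its probe with the highest mean, at its TKO minus J1 difference (log2) in serum on the horizontal axis and in 2i on the vertical axis. Colours give the call in serum over all probes of the gene. X-linked germline members are spread to the right and upward (medians 1.69 and 1.40), whereas primitive endoderm and fibroblast genes lie to the left in serum and near 0 in 2i (medians -2.39 and 0.23, -2.10 and 0.15).

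Primitive endoderm genes, which mark the extraembryonic lineage that borders the early epiblast, had 18 of 24 tested members lower (75%) and none higher, beside 9.84% and 9.21% of all genes, with a median of -2.39. In bulk RNA, fewer cells of a type and less RNA per cell cannot be told apart. All 5 defining factors were lower. Gata6, a founding transcription factor of the lineage, read 2.22, 2.10, 2.24 and 2.28 in J1-serum and -0.72 and -1.30 in TKO-serum, differing by -3.22 (SE 0.54; adjusted p 3.8e-04, limma). Gata4 was at -2.21, Sox17 at -2.84, Sox7 at -3.63, and Foxa2 was at least 8.92-fold lower. The groups did not overlap for Gata6, and J1-serum was well above background on all 4 arrays for each of the 5 factors.

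The receptor Pdgfra read 0.02, -0.39, -0.17 and -0.11 in J1-serum, was not well above background in TKO-serum (-4.45 and -4.47) and was at least 10.4-fold lower. Basement membrane genes made by the lineage were low as well, with Col4a2 at -3.78, Col4a1 at -3.35, Lama1 at -2.13 and Lamb1 at -1.77. The endocytic receptor genes Cubn, Amn and Dab2 were at -3.43, -2.56 and -2.77, and the proteoglycan gene Srgn, saturated on 1 J1-serum array, was lower. Lrp2 (0.96), Fst (0.07), Hnf4a (-0.84) and Lamc1 (-0.54) were among those not called, and Sparc was called by another probe than its brightest. Fibroblasts also make several of these products, Col4a1, Col4a2, Lamb1 and Pdgfra among them.

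The summed signal of the primitive endoderm list was 190 to 229 in J1-serum and 75.3 to 88.8 in TKO-serum. It was 93.3 to 95.7 in 3B3l-serum, the other feeder-free serum culture, and between 57.3 and 72.8 in the 3 groups in 2i. J1-serum alone stood high. Gata6 read -1.68 and -1.18 and Pdgfra -3.76 and -4.02 in 3B3l-serum, below every J1-serum array. In 2i 1 member was called higher in TKO and none lower, beside 4.52% and 4.01% of all genes. But 9 to 12 of the 24 members were well above background on an array of J1-2i or TKO-2i. A lower level could therefore not have been measured for many.

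Fibroblast markers, listed to read the feeder cells, had 23 of 28 tested members lower (82.1%) and none higher, beside 9.84% and 9.21% of all genes, with a median of -2.10. The 28 are those of 42 listed genes that passed the filter on dim probes. Ccl2, a chemokine made by fibroblasts, read 2.19, 2.50, 2.65 and 2.23 in J1-serum and was not well above background in TKO-serum (-3.79 and -3.47), at least 55.3-fold lower, the largest bound of any gene in the comparison. The collagen genes Col1a1 and Col1a2 read -0.46 and -1.60 and -0.69 and -0.60 in TKO-serum, differences of -3.53 and -3.44. They stayed well above background on both TKO-serum arrays, so their RNA was measured without feeders as well. Of the 8 defining markers, Col1a1, Col1a2, Col3a1 and Pdgfrb were well above background on all 4 J1-serum arrays, Twist2 on 2 and Postn on 1, and Prrx1 and Fap on none. In TKO-serum the 3 collagen genes remained above background and the other 5 markers did not.

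Dcn, Bgn and Pdgfrb were at least 18.8, 10.4 and 5.64-fold lower, and Vcam1 and Cav1 at least 9.36 and 4.99-fold. The matrix and contractile genes Ccn1 (-2.38), Thbs1 (-2.13), Acta2 (-1.96), Ccn2 (-1.95) and Tagln (-1.44) were lower. Fn1, Lgals1, Loxl1, Col6a1 and Twist1, at -0.61, -0.90, -0.91, -0.60 and 0.07, were not called. In 2i the median was 0.15, with 5 members higher and 3 lower in TKO, beside 4.52% and 4.01% of all genes. On the arrays of J1-2i and TKO-2i 15 to 20 of the 28 members were well above background.

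The summed signal of the fibroblast list, which a few bright genes carry, was not low in every culture without feeders. The summed signal was 171 to 197 in J1-serum, 68.6 to 69.4 in TKO-serum and 195 to 206 in 3B3l-serum. Single members split in 3B3l-serum. S100a6 (mean 5.73 in 3B3l-serum, 4.19 ± 0.15 in J1-serum, SD, n = 4), Tagln (4.39, 3.81 ± 0.17), Ccn2 (4.07, 3.71 ± 0.21) and Col1a1 (1.87, 2.49 ± 0.37) were as high or nearly as high there as in J1-serum. Ccl2 (-1.84, 2.39 ± 0.22), S100a4 (0.03, 2.79 ± 0.23), Col1a2 (0.89, 2.80 ± 0.30), Col3a1 (-0.45, 0.81 ± 0.17), Pdgfrb (-2.10, -0.83 ± 0.09), Dcn (-3.31, 1.43 ± 0.12), Vcam1 (-4.53, -0.32 ± 0.13) and Bgn (-2.65, -0.16 ± 0.30) were lower in 3B3l-serum, the last 4 not well above background there. These groups were on different slides except for J1-serum replicate 1, so the levels carry no test. The part of feeder RNA in the other lower genes was not tested. Without the fibroblast and primitive endoderm lists 1329 of 13873 genes (9.58%) were lower, and these lists held 16 of the 93 genes lower by at least 8-fold.

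**Figure D5:**
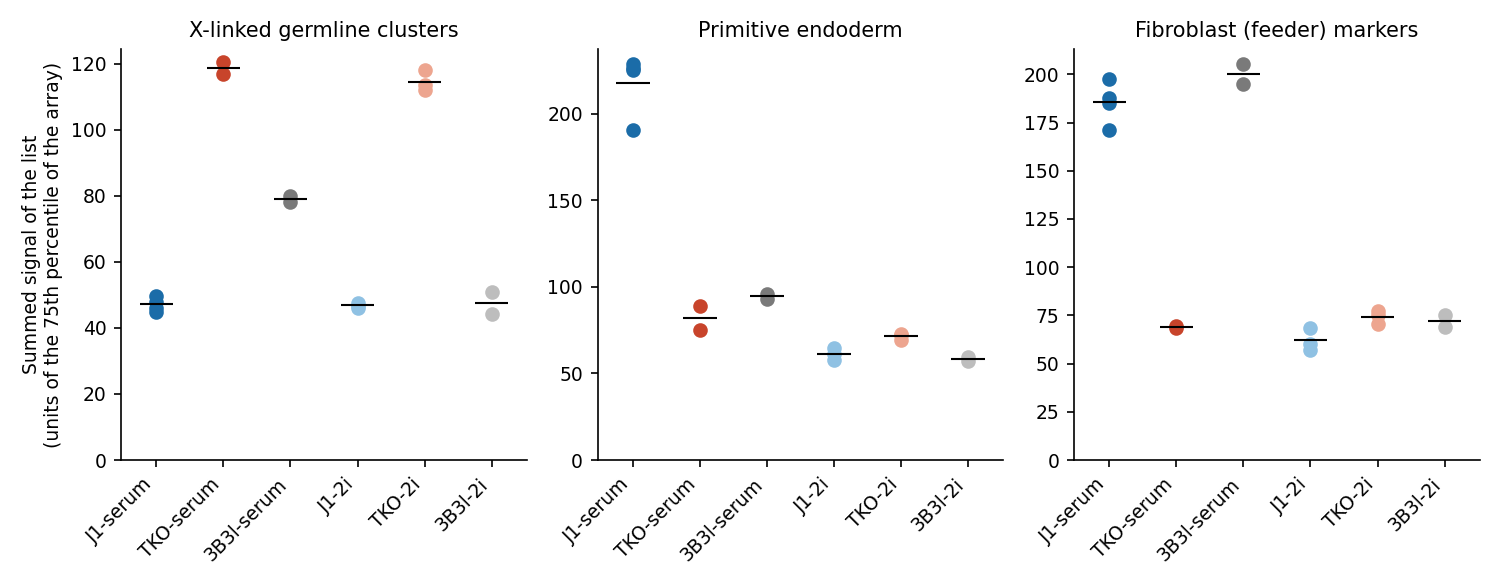
Points are arrays in each of the 6 groups, bars are group means, and the vertical axis, which starts at 0, is the summed linear signal of the tested members of a list in units of the 75th percentile of the array. The X-linked germline list is high in both TKO groups, the primitive endoderm list is high in J1-serum alone, and the fibroblast list is high in J1-serum and in 3B3l-serum and low in TKO-serum and the 2i groups. The summed signal of the X-linked list is intermediate in 3B3l-serum (78.2 to 80.1). Of its 35 members, 15 to 17 were well above background on an array there, fewer than the 21 to 23 in J1-serum.

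Of 21 trophoblast genes, 6 were lower (28.6%, beside 9.84% of all genes), 4 of them keratin genes, and Peg10 was higher. Krt19, Krt7, Krt8 and Krt18, which mark simple epithelia, were at -1.93, -1.57, -1.27 and -1.23, and Esx1 was at -1.87. Cdx2 was at least 1.74-fold lower, with J1-serum above background on 1 array and TKO-serum on none. Of the other defining markers of trophoblast, Elf5 was not tested and Gata3, Tpbpa and Plac1 were not called.

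Signalling and defence genes showed smaller groups of calls. Of 23 targets of the MEK and ERK kinases, 3 were higher (13%) and 4 lower (17.4%), beside 9.21% and 9.84% of all genes. Myc (2.42), Spry4 and Mycn were higher and Ier3 (-2.78), Fos (-1.70), Dusp4 (-1.67) and Fosl1 (at least 2.91-fold) lower. Myc read -0.71, -0.49, -0.47 and -0.55 in J1-serum and 2.26 and 1.46 in TKO-serum, with no overlap. Of 30 interferon-stimulated genes 2 were higher (6.67%) and 7 lower (23.3%), beside 9.21% and 9.84% of all genes. The higher ones were the RNA sensor gene Ddx58 (1.84) and the kinase gene Eif2ak2. B2m, the light chain of MHC class I, read 4.66, 4.65, 4.74 and 4.79 in J1-serum and 2.59 and 2.98 in TKO-serum (-1.93, limma adjusted p 2.7e-07) and, like Stat2 (-1.59), Ifi27 (-1.59) and Isg20 (-1.26), was not called lower in 2i, where Isg20 was higher (2.06). The median of the interferon list in serum was -0.09.

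Of 31 heterochromatin and Polycomb genes, 4 were higher (12.9%) and 1 lower (3.23%), near or below the shares over all genes. Morc1, a germline silencing gene (1.47), the Polycomb component gene L3mbtl2 (1.39), Atrx and Cbx5 (1.06) were higher and Ezh1 (-1.10) lower. Morc1 read 2.73, 3.08, 3.30 and 3.24 in J1-serum and 4.49 and 4.61 in TKO-serum, while its 2i difference was -0.07. Genes of the 2-cell-like state, which appears in a small share of mESCs, had 3 of 16 members lower in serum (18.8%, beside 9.84% of all genes), Tcstv3 (-2.22) and Gm2022 (-1.23) among them. In 2i 12 of the 16 were lower, beside 4.01% of all genes there, with a median of -1.68 against -0.25 in serum. Zscan4f, a marker of that state, differed by -0.59 in serum and was at least 38.9-fold lower in 2i. Several of these genes have near-identical copies.

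The largest differences over all genes, among probes well above background on all 6 arrays with groups that did not overlap, repeated several of these genes and added others. Beside Gm364, Xlr5c, Xlr5b, Fkbp6, Nxf3 and Mirg, the higher genes were the autophagy receptor gene Calcoco2 (3.21), Igsf23 (3.18), 1700018B24Rik (3.16), Wfdc15a (3.10), the neural factor gene Sox21 (3.02) and AV320801 (2.93). Calcoco2 read 0.49, 0.97, 0.96 and 0.86 in J1-serum, 4.18 and 3.88 in TKO-serum and 3.03 and 3.32 in 3B3l-serum. It differed by 0.56 in 2i, so it was high in both feeder-free serum cultures and not called between the lines in 2i. AV320801 and Wfdc15a were also higher in 2i (2.76 and 1.52). Beside the methyltransferase, collagen and endoderm genes, the lower genes were the citrate carrier gene Slc13a5 (-3.58), Timp2 (-3.42), S100a4 (-3.34) and the protease gene Ctsh (-3.30). Srgn met the same rule, with the 1 saturated array named above.

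Among genes on in one line and off in the other, Gm7903, an X-linked gene, had the largest bound in the higher direction, at least 32.6-fold. It read -4.91, -3.84, -4.06 and -3.59 in J1-serum and 1.77 and 1.53 in TKO-serum, and was higher in 2i too (3.33). Tenm4, a teneurin of cell contacts, was at least 20.7-fold higher, Cox7b2, a testis form of a respiratory chain subunit, at least 19.4-fold, and Mup6 at least 12.6-fold. Tenm4 differed by 0.01 in 2i and read 1.98 and 2.22 in 3B3l-serum. In the other direction Cxcl1 was at least 24.7-fold, Hkdc1 22.1-fold, Pmp22 19-fold, Pygl 17.3-fold, Rasd1 16-fold and Rgcc 14.2-fold lower. Pygl, the liver form of glycogen phosphorylase, read 0.66, 0.71, 0.69 and 0.74 in J1-serum and -4.0 and -3.50 in TKO-serum. It was at least 12.3-fold lower in 2i, while Pmp22, Rasd1 and Cxcl1 were not well above background on any J1-2i or TKO-2i array, so no difference could be measured there.

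Set against 2i as a whole, where 629 genes were higher (4.52%) and 558 lower (4.01%), 8.52% in either direction, on arrays that serum did not use, 181 genes were higher in both media, 14.1% of those higher in serum and 28.8% of those higher in 2i. A further 225 (1.62% of genes) were lower in both, 16.4% and 40.3% of the lower genes. In opposite directions, 33 genes were higher in serum and lower in 2i, and 63 were lower in serum and higher in 2i. A probe could pass the filter through any of the 6 groups. Calls in 2i can therefore include probes not well above background in either J1-2i or TKO-2i. The difference between the 2 contrasts was itself called in the direction of serum for 768 of the genes higher in serum (59.9%) and 794 of those lower (58.0%), beside 8.59% and 8.85% of all genes. These genes were chosen by the serum difference that the test contains, which raises both shares, so nothing is read from them. For the remaining called genes the difference between media was not called in that direction, which does not show that it was equal.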

How the data were processed

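Per the labels, total RNA was labelled with Cy3 and hybridised to 1-colour Agilent mouse arrays. The deposited scanner files hold processed signal intensity from Agilent Feature Extraction 11.5.1.1, background subtracted and not normalized between arrays, and a further table deposited by the authors, in log2 units, served as an alternative only. Its values, and the deposited score columns that flag spots, were read as given. The 75th percentile of the signal was 1136 to 1797 intensity units on the 6 arrays, and the number of arrays limits the precision.

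Log2 processed signal minus the array's 75th percentile was averaged over the spots of a probe, without outlier spots and with saturated ones. A probe was well above background where at least 50% of its spots were flagged so, and was tested when this held on every array of at least 1 group (27126 of 55681 probes, of which 9267 had no gene name and 797 lacked a value on at least 1 of the 6 arrays). Names came from RefSeq accessions on GRCm38.p6. The array was designed on mm9, so probe coordinates are not given. All 16 arrays were fitted as 6 group means in limma 3.58.1 (R 4.3.3) with eBayes and Benjamini-Hochberg adjustment over the probes tested, two-sided, and every adjusted p here is limma's. Where a group was not well above background on any array, a fold is given against the lowest signal well above background on each array, or the probe's own if higher. Python 3.11.15 was used for counts, with medians and list values from the probe of a gene with the highest mean. The fit was tested on simulated data.

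Genes were named by rule: the methylation machinery; from each other list up to 5 called members with the largest difference or bound and no overlap; the 12 largest differences in each direction among probes above background on all 6 arrays; and the 10 largest bounds in each direction. Members outside this rule were chosen after their values were seen. The comparison, gene lists and tests were chosen with earlier results of these data known. Alternatives were array median scaling, quantile normalization, normexp with an offset of 50 on the median signal, the authors' table and 3 other probe filters. Others were the 6 arrays alone, slide and replicate number as blocks, slide 1 alone and no fold limit. An unpaired t-test with pooled variance, 1 probe per gene and leaving out each array were also used.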

Additional observations from a re-analysis of the deposited data

Results flagged for a closer look

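For the genes below, the difference between serum and 2i in the TKO minus J1 contrast was itself called in the limma model. Values are the serum difference minus the 2i difference on the log2 scale. Most of these genes were named for a large serum difference, which this test contains, so larger differences in serum are favoured by the choice of genes.

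Where the probe was well above background in at least 1 array of each of the 4 groups and unsaturated, the value was positive for 1700018B24Rik (1.83), Calcoco2 (2.65), Dazl (1.04), Ddx58 (1.38), Dppa2 (2.12), Fkbp6 (1.60), Fkbp6 (second probe) (1.41), Gdf3 (1.55), Gm2022 (1.59), Gm364 (1.27), Gtsf1 (1.85), Igsf23 (2.48), L3mbtl2 (1.08), Lefty2 (2.92), Morc1 (1.53), Nr0b1 (1.68), Nxf3 (2.76), Plagl1 (1.40), Prdm14 (1.22), Sall4 (1.01), Sox21 (3.07), Stk31 (1.80), Tdrd3 (1.86), Tet1 (1.13), Tet2 (1.23), Trdmt1 (1.08), Wfdc15a (1.58), Xlr5a (2.47), Xlr5b (1.93), Xlr5c (2.00) and Zic2 (2.95). It was negative for B2m (-2.25), Col1a2 (-3.88), Dnmt3b (-2.04), Dnmt3b (second probe) (-2.13), Ier3 (-2.59), Ifi27 (-1.85), Isg20 (-3.33), Krt18 (-1.24), Krt19 (-2.40), Krt8 (-1.72), Meioc (-1.13), Slc13a5 (-3.54), Stat2 (-1.54), Sycp3 (-1.07) and Timp2 (-2.69).

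Where at least 1 of the 4 groups was not well above background on any array, the value has no exact size and no order. It was positive for Asz1 (3.93), Cox7b2 (3.38), Fgf15 (2.40), Foxd3 (3.50), Gm7903 (2.42), Krt7 (1.45), Magea1 (1.61), Mei4 (2.90), Mup6 (3.89), Pax6 (1.75), Rhox2h (2.42), Rhox4a (3.50), Rhox4g (3.05) and Tenm4 (4.49), and negative for Bgn (-2.32), Ccl2 (-6.23), Col1a1 (-6.0), Col4a1 (-4.13), Col4a2 (-3.60), Ctsh (-1.90), Cubn (-3.59), Cxcl1 (-5.67), Dcn (-2.79), Dnmt3a (-1.67), Dusp4 (-1.65), Fosl1 (-1.40), Hkdc1 (-5.55), Pdgfra (-4.58), Pmp22 (-3.95), Rasd1 (-3.88), Rgcc (-2.73), S100a4 (-3.52), Slc13a5 (second probe) (-4.67), Sox7 (-3.73) and Zbtb4 (-1.83). The values were limited by saturation for Dnmt3l (-1.29) and Srgn (-2.27).

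In J1-serum, the only group of 4 arrays, 1 array lay apart from the other 3 for Zfp57 (0.936), Dazl (0.902), Krt18 (0.930), Wfdc15a (0.912), Sox21 (0.857), Cox7b2 (0.983) and Rhox4g (0.933), where the value is the gap to the nearest array as a share of the whole range, past Dixon's critical value. The array apart was replicate 1 for Zfp57, Dazl, Krt18 and Sox21, replicate 3 for Wfdc15a, and replicate 4 for Cox7b2 and Rhox4g. Chance flags about 1 in 20 groups.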

How the results depend on the processing

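No count reversed, and the alternatives moved 3 of the 6 main counts by over 1.5 times. With no fold change limit 3547 genes were higher and 3480 lower, and among probes well above background on all 6 arrays 748 genes were higher and 929 lower, with 13 members of the X-linked germline list higher. That filter tested 11607 genes and leaves out probes dim on any of the 6 arrays. The remaining alternatives that kept all arrays gave between 912 (normexp) and 1447 (no filter on dim probes) genes higher and between 1094 and 1694 lower. Median scaling, which put the median of all genes at 0.055, gave 1380 higher and 1279 lower. The unpaired t-test gave 1218 and 1349 before and 1062 and 1260 after Benjamini-Hochberg adjustment. Leaving out each array in turn gave 1233 to 1522 genes higher, 1282 to 1497 lower, 5 to 6 piRNA pathway, 7 to 8 meiosis and 22 to 24 X-linked germline members higher, and 23 to 24 fibroblast members lower.

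With the replicate number as a block 1291 genes were higher and 1434 lower. The samples were treated as unpaired. Deviations of same-numbered arrays correlated at 0.068 and 0.074. With 2 TKO-serum arrays, whose deviations mirror each other, these values cannot tell whether the numbers pair the samples. Of the values of single genes under the alternatives, 1936 kept their direction and side of the threshold, 10 gained the call (Dnmt3l, Tet3, Zfp57 and Trim28) and 11 lost it (Tet1, Prdm14, Magel2, Fosl1, Ezh1 and Cbx5). Small list counts rested on 1 array: higher naive genes were 8 without TKO-serum replicate 2, higher interferon genes 5 without TKO-serum replicate 1, and higher ERK targets 1 without TKO-serum replicate 1 and 5 without replicate 2. The counts in 2i and between media were computed with the main settings only. Bright probes reached saturation and dim ones background, which limits the folds.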
